A study of Mus musculus with 8 samples.

Results

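The 39 genes described here encode the proteins of the liver's extracellular matrix, the enzymes that cross-link and cut it, and markers of the hepatic stellate cells that make much of it. They were chosen by gene symbol, and each symbol matched 1 of the 56748 Ensembl gene IDs in the deposited count table. RNA was sequenced in bulk from mouse livers in a model that the labels call MASLD, the fatty liver disease tied to metabolic dysfunction, made by 16 weeks of high-fat, high-fructose feeding. By the labels 4 libraries are from miR-93 knockout mice and the other 4 from wild-type mice, and both genotypes ate that diet. The labels give no age, sex or strain, do not say in which cells miR-93 was deleted, and include no group on another diet. Nothing in them states that each library is its own animal, and p-values therefore measure only the spread between these libraries, which may be technical.

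Hepatic stellate cells lie between hepatocytes and the sinusoids. At rest they store retinol esters, and in an injured liver they turn into contractile myofibroblasts that secrete type I and type III collagen. Transforming growth factor beta and platelet-derived growth factors drive this change, and metalloproteinases and their tissue inhibitors (TIMPs) set how fast the matrix is removed. Matrix is also made by portal fibroblasts, vascular smooth muscle cells and endothelial cells, and hepatocytes secrete plasma fibronectin and vitronectin. In bulk RNA, fewer cells of a type and less RNA per cell cannot be told apart.

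Totals ran from 9187279 to 10966019 counts in the knockout libraries and from 5085860 to 7451026 in the wild-type libraries. Transcripts of the mitochondrial genome took 8.08% to 15.0% of the counts in knockout libraries and 25.4% to 77.8% in wild-type libraries, so genotype and this share cannot be told apart. Wild-type replicate 4 stood apart, with 1131446 counts outside the mitochondrial genome against 4581983 or more in each of the other libraries. In that library 1 count is worth 0.562 CPM (a count scaled by the library's effective size) and a count of 0 allows up to 1.69 CPM after TMM scaling, against 0.455 CPM or less elsewhere. Levels below are CPM after TMM scaling. Fold changes are log2, knockout over wild type, ± the standard error of edgeR's quasi-likelihood fit, with Benjamini-Hochberg adjusted p over all 13204 genes tested. Mir93 had 0 counts in all 8 libraries, which leaves the genotype unchecked by its own gene.

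Of the 39 genes, 31 had enough counts to be tested and 8 did not: Fbn1, Thbs1, Lox, Loxl1, Loxl2, Mmp13, Timp1 and Hgf. In knockout livers 6 of the 31 were lower at the adjusted threshold of 0.05 (Col1a1, Col1a2, Col3a1, Col6a3, Acta2 and Tagln) and 2 were higher (Fn1 and Timp3). That is 19.4% lower and 6.45% higher, against 10.7% lower and 10.4% higher over all genes tested. The median log2 fold change was -0.31 over the 31 genes and -0.01 over all genes tested. Without wild-type replicate 4, 7 of 36 tested members were lower (19.4%) and 6 were higher (16.7%), against 17.5% and 17.8% of all genes. In that fit both shares were close to those of all genes. Every knockout library lay below every wild-type library for 8 of the 31 genes (25.8%, against 14.0% of all genes) and above for 4 (12.9%, against 16.3%). Wild-type replicate 4 had the highest level of the 8 libraries for 20 of the 31 genes (64.5%), which it had for 31.0% of all genes tested.

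**Figure D1:**
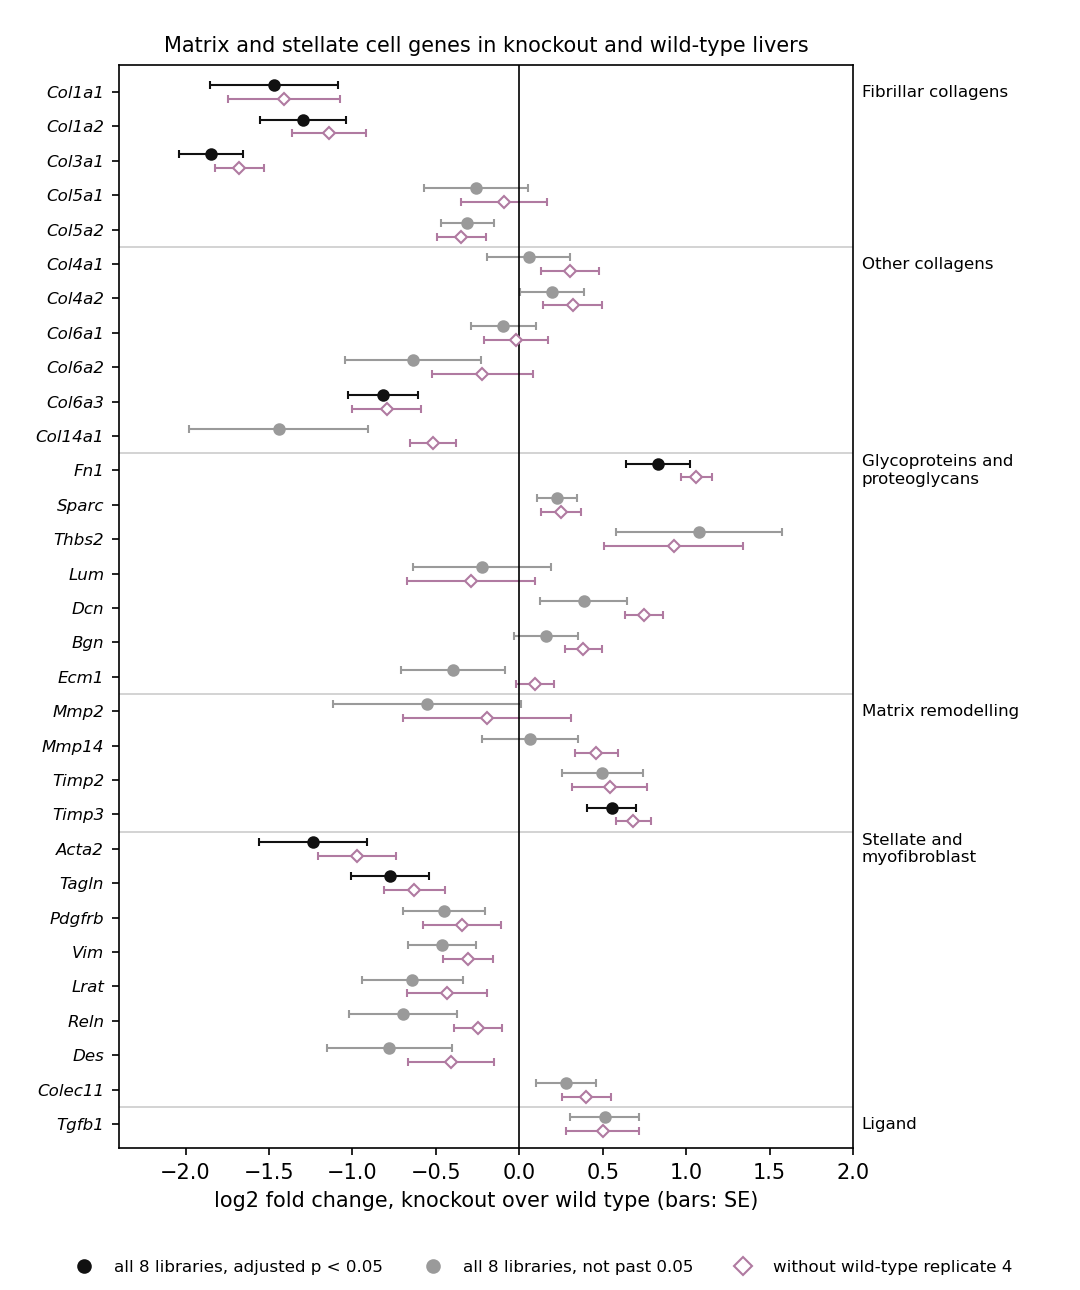
The log2 fold change (knockout over wild type, horizontal axis) is shown with its standard error for the 31 tested genes. Filled circles are the fit on all 8 libraries, black where the adjusted p is under 0.05 and grey where it is not, and open diamonds are the fit without wild-type replicate 4. Type I and III collagen genes, Acta2 and Tagln lie left of 0 in both fits, while Fn1 and Timp3 lie right of 0.

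Fibrillar collagens form the scar fibres of a fibrotic liver, with type I and type III as the main kinds and type V within the fibres. Of the 5 genes, all tested, 3 fell in knockout livers (Col1a1, Col1a2 and Col3a1), and the type V genes Col5a1 and Col5a2 were not called. The share that fell was 60%, against 10.7% of all genes tested. Without wild-type replicate 4 the same 3 fell, against 17.5% of all genes. The median over the 5 was -1.30. Col3a1, which encodes type III collagen, had 6.11, 6.23, 5.92 and 6.39 CPM in the 4 knockout libraries, against 22.1, 18.7, 18.7 and 32.6 CPM in the wild-type libraries. The knockout libraries were nearly level with each other, and all lay far below the lowest wild-type library. It fell by 1.85 ± 0.19 on the log2 scale (adjusted p = 8.45e-05).

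Col1a2, which encodes the second chain of type I collagen, had 3.50, 3.45, 4.02 and 4.95 CPM in knockout livers, against 10.6, 9.48, 6.37 and 14.6 CPM in wild-type livers. The groups did not overlap, and the fall was 1.30 ± 0.26 (adjusted p = 0.00542). Col1a1, the partner chain, had 1.06, 1.35, 3.14 and 2.74 CPM in knockout livers, against 6.19, 3.71, 6.98 and 6.75 CPM in wild-type livers. Here the groups came closest in knockout replicate 3 and wild-type replicate 2, and the fall was 1.47 ± 0.38 (adjusted p = 0.0202). These are small numbers, since the 4 knockout libraries held 13 to 43 counts of Col1a1 each and wild-type replicate 4 held 12. The call of Col1a1 was lost without knockout replicate 2 (adjusted p = 0.0693) or wild-type replicate 3 (0.0626), while those of Col1a2 and Col3a1 held with any single library left out. With scaling to library size alone (median gene up by 0.54), the fit left Col3a1 at -1.21 (0.0430) and took Col1a1 to -0.91 (0.225) and Col1a2 to -0.68 (0.221).

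The type V genes of this group, Col5a1 and Col5a2, differed less. Col5a2 had 17.3, 13, 16.7 and 12.3 CPM in knockout livers, against 19.8, 18.8, 18.4 and 15.7 CPM in wild-type livers, with a log2 fold change of -0.31 ± 0.16 (95% interval -0.66 to 0.04, adjusted p = 0.182). Col5a1 was at -0.26 ± 0.31 (adjusted p = 0.592). Both read above 0 when scaled by library size alone (0.23 and 0.35). The partner chains of a collagen, and the type III gene Col3a1 with the type I gene Col1a1, were also compared within a library, which needs no scaling. The log2 ratio of Col1a1 to Col1a2 counts was -1.05 ± 0.58 in knockout and -0.77 ± 0.64 in wild-type libraries (SD, n = 4 each, two-sided exact permutation p = 0.543, adjusted p = 0.750 over 5 pairs). Col3a1 to Col1a1 gave 1.69 ± 0.75 and 1.94 ± 0.41 (SD, n = 4 each, exact permutation p = 0.600, adjusted p = 0.750). For the pairs Col4a1 to Col4a2, Col5a1 to Col5a2 and Col6a1 to Col6a2 the adjusted exact permutation p was 0.750, 0.943 and 0.750. With 4 against 4 libraries the smallest p this test can give is 0.0286.

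**Figure D2:**
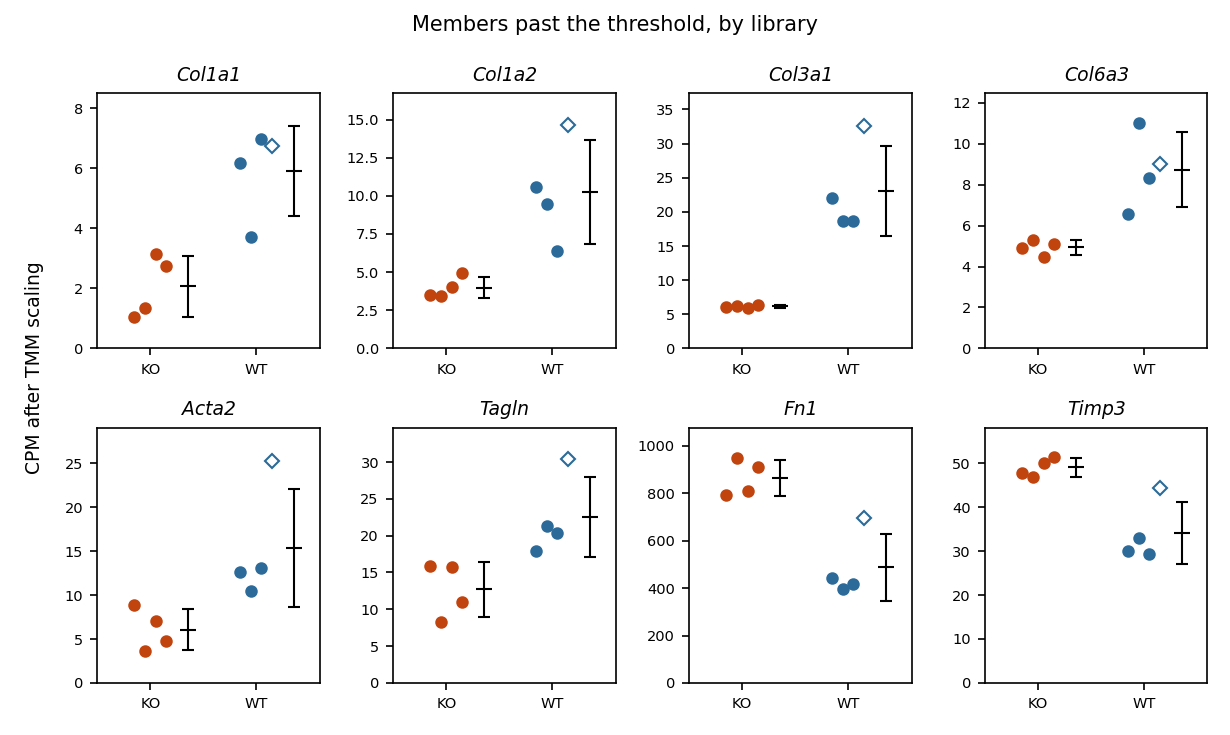
CPM after TMM scaling (vertical axis, starting at 0) is plotted for each library of the 8 genes past the threshold, with knockout (KO) left of wild type (WT), the mean ± SD in black and wild-type replicate 4 as an open diamond. For each of these genes the knockout and wild-type points do not overlap.

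The 250 bases before the annotated start are printed here for the 3 genes that fell and held SMAD-binding letters there. Transforming growth factor beta acts through SMAD proteins. The capitals mark the SMAD-binding letters CAGACA, or TGTCTG on the other strand. The sequences are RefSeq's for GRCm38.p6, while the counts were made on mm39.
Acta2 (chr19:34255374-34255623, minus strand): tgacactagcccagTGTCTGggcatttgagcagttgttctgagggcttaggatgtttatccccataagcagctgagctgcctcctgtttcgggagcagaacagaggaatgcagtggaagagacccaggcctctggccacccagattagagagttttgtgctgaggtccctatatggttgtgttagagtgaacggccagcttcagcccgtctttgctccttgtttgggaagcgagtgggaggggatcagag
Col1a2 (chr6:4505368-4505617, plus strand): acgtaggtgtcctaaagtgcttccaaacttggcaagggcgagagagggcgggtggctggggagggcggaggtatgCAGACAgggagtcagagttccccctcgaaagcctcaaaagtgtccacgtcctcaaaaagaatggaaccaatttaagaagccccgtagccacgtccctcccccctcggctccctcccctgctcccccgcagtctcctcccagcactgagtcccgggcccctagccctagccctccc
Col3a1 (chr1:45311288-45311537, plus strand): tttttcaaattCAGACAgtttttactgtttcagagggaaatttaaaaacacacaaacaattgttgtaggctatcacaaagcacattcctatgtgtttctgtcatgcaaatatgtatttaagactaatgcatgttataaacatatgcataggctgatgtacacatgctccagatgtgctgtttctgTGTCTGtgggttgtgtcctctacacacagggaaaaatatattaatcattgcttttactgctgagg
Of the 26 members with a promoter in the RefSeq table, 8 held these letters, among them 3 of the 4 that fell and have an entry. Col6a3 was the one without them. The other members that held the letters, Col5a1, Colec11, Ecm1, Sparc and Thbs2, were not called. The letters stand in 17.1% of the 32851 promoter windows of this length. Of the other motifs searched on both strands, CCAAT stood in 9 of the 26, TATAAA in 5 and the CArG box by its strict consensus in 0, against 33.8%, 12.4% and 1.47% of all windows. The strict consensus passes over near matches such as ccctatatgg and ccttgtttgg in the Acta2 window. A match in this window is a description of the letters only.

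Type IV collagen is the network of basement membranes, type VI forms beaded filaments around cells, and type XIV binds to fibrils. Of these 6 genes Col6a3 fell and 5 were not called, with a median of -0.37. The share that fell was 16.7%, against 10.7% of all genes tested. Without wild-type replicate 4, 2 fell (33.3%, against 17.5% of all genes). Col6a3, a type VI chain, had 4.88, 5.30, 4.46 and 5.10 CPM in knockout livers, against 6.57, 11, 8.34 and 9.0 CPM in wild-type livers, a log2 fold change of -0.81 ± 0.21 (adjusted p = 0.0191). The groups did not overlap, yet the call did not survive leaving out knockout replicate 2, 3 or 4, or replicate 2 of the wild type (adjusted p = 0.0515, 0.0630, 0.0578 and 0.0747). Keeping all low genes in the fit (0.0536), thinning the libraries to one depth (-0.51, 0.272) or library size scaling (-0.24, 0.660) also ended it. The partner genes were at -0.10 ± 0.20 for Col6a1 (adjusted p = 0.808) and -0.64 ± 0.41 for Col6a2 (0.288).

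The basement membrane genes Col4a1 and Col4a2 were not called, at 0.06 ± 0.25 (adjusted p = 0.898) and 0.19 ± 0.19 (0.504). Col4a1 had 11.6, 10.4, 9.20 and 8.45 CPM in knockout livers, against 7.83, 8.38, 8.04 and 17.4 CPM in wild-type livers. The highest and the lowest of these 8 values were both from wild-type livers. Col14a1 had 12.0, 15.6, 12.9 and 12.9 CPM in knockout livers, against 19.7, 17.3, 20.8 and 106 CPM in wild-type livers. All knockout libraries were below all wild-type libraries, and the log2 fold change of -1.44 ± 0.54 missed the threshold (adjusted p = 0.0822). Without wild-type replicate 4 it was called and smaller, at -0.52 (adjusted p = 0.00492).

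Fibronectin, thrombospondins and small leucine-rich proteoglycans bind collagen and growth factors. Of 9 such genes 7 were tested, 1 rose and none fell, with a median of 0.22. The share that rose was 14.3%, against 10.4% of all genes tested. Without wild-type replicate 4 all 9 were tested and 3 rose (33.3%, against 17.8% of all genes). Fn1, the fibronectin gene, which hepatocytes also express for the plasma form, had 793, 948, 808 and 913 CPM in knockout livers, against 442, 395, 416 and 697 CPM in wild-type livers. Every knockout library was higher, and wild-type replicate 4 lay between the other wild-type libraries and the knockout libraries. The rise was 0.83 ± 0.19 (adjusted p = 0.0111) and held with each library left out (adjusted p at most 0.0431). Per kilobase of annotated exon, Fn1 was the most abundant of the 39 genes in knockout livers, at a mean level of 74.1 CPM per kilobase.

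The proteoglycan genes Dcn (decorin) and Bgn (biglycan) were not called over all libraries, at 0.39 ± 0.26 (adjusted p = 0.316) and 0.16 ± 0.19 (0.596). Dcn had 61.3, 64.1, 63.0 and 66.5 CPM in knockout livers, against 44.1, 30.6, 39.9 and 87.7 CPM in wild-type livers. Its knockout libraries lay above wild-type replicates 1 to 3 and below wild-type replicate 4. Without that library Dcn rose by 0.75 (adjusted p = 1.56e-05) and Bgn by 0.38 (0.00841). Lum (lumican), of the same proteoglycan family, was at -0.22 ± 0.41 (adjusted p = 0.741).

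Sparc, which encodes the collagen-binding protein osteonectin, had 23.3, 24.3, 21.5 and 22.8 CPM in knockout livers, against 19.2, 19.0, 20.2 and 20.8 CPM in wild-type livers. The groups did not overlap, by a small margin, and the difference of 0.22 ± 0.12 was not called (adjusted p = 0.207). Ecm1 was not called either, at -0.40 ± 0.31 (adjusted p = 0.392), and read 0.10 without wild-type replicate 4, which held 230 CPM against 73.4 to 98.8 CPM in the 4 knockout libraries and 75.5 to 98.1 CPM in the other wild-type libraries. Thbs2, a thrombospondin gene, had 2.28, 2.27, 2.19 and 2.44 CPM in knockout livers, against 0.632, 0.825, 2.28 and 0 CPM in wild-type livers. The groups overlapped in wild-type replicate 3. In raw counts Thbs2 had 27 to 32 in each knockout library and 5, 6, 15 and 0 in the shallower wild-type libraries. The 0 in wild-type replicate 4 allows up to 1.69 CPM of Thbs2. The log2 fold change of Thbs2, 1.08 ± 0.50, was not called (adjusted p = 0.146), except without wild-type replicate 3 (1.86, adjusted p = 0.0343). Without wild-type replicate 4, Thbs2 read 0.92 (adjusted p = 0.0885). The microfibril gene Fbn1, with 0 to 22 counts a library, and Thbs1, with 3 to 15, were too low to be tested over all libraries. Without wild-type replicate 4 they read -0.73 (adjusted p = 0.292) and -0.46 (0.476), and neither was called.

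Matrix is cross-linked by lysyl oxidases, cut by metalloproteinases and protected by TIMPs. Of these 9 genes 4 had enough counts to be tested, of which 1 rose and none fell. The share that rose was 25%, against 10.4% of all genes tested. Without wild-type replicate 4, 2 of 6 rose (33.3%, against 17.8% of all genes). Timp3, an inhibitor that stays bound to the matrix, had 47.7, 46.9, 50.0 and 51.5 CPM in knockout livers, against 29.9, 33.0, 29.3 and 44.4 CPM in wild-type livers. The groups did not overlap, and the rise was 0.55 ± 0.15 (adjusted p = 0.0217). The call held without knockout replicate 1 or wild-type replicate 4 but was lost without any of the other 6 libraries (adjusted p = 0.0519 to 0.0742), with library size scaling (1.18, 0.0539) and after thinning (0.50, 0.0974).

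Timp2 had 4.88, 9.34, 8.33 and 7.99 CPM in knockout livers, against 4.93, 6.05, 4.85 and 6.19 CPM in wild-type livers. Knockout replicate 1 lay among the wild-type values and the other 3 above them (0.50 ± 0.24, adjusted p = 0.165). Mmp14, the membrane-bound protease that activates Mmp2, was at 0.06 ± 0.29 (adjusted p = 0.906), and rose by 0.46 without wild-type replicate 4 (0.00671). The gelatinase gene Mmp2 was at -0.55 ± 0.56 (adjusted p = 0.517).

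The fibrosis-associated inhibitor gene Timp1 and the collagenase gene Mmp13 were near the limit of detection. Timp1 had 1, 1, 2 and 3 counts in the knockout libraries, against 0, 3, 0 and 0 in the wild-type libraries. Mmp13 had 2, 1, 3 and 1 counts in the knockout libraries, against 1, 0, 0 and 0. Lox had at most 4 counts in any library, Loxl1 at most 11 and Loxl2 at most 17. For Timp1, Mmp13 and Lox a difference was not detectable at this depth. Loxl1 and Loxl2 had enough counts to be tested without wild-type replicate 4. There they read -0.77 (adjusted p = 0.229) and 0.01 (0.989), and neither was called. Knockout values of Loxl1 were all below wild-type replicates 1 to 3.

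Acta2 and Tagln encode smooth muscle actin and transgelin, which activated stellate cells share with vascular smooth muscle. Both fell in knockout livers. Acta2 had 8.87, 3.62, 7.09 and 4.72 CPM in knockout livers, against 12.6, 10.4, 13 and 25.3 CPM in wild-type livers (-1.24 ± 0.33, adjusted p = 0.0212). Tagln had 15.9, 8.25, 15.7 and 11 CPM in knockout livers, against 17.9, 21.3, 20.3 and 30.4 CPM in wild-type livers (-0.77 ± 0.23, adjusted p = 0.0373). The groups did not overlap for either gene, and within the knockout group replicates 1 and 3 were the higher pair for both. The call of Acta2 was lost without knockout replicate 2 or 4 (adjusted p = 0.0666 and 0.0749). That of Tagln was lost on leaving out replicate 2 or 4 of the knockout, or replicate 2 or 3 of the wild type (0.102, 0.116, 0.0834 and 0.0648), and with library size scaling Acta2 read -0.58 (0.290) and Tagln -0.16 (0.763).

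Of the other 7 stellate genes 6 were tested and none was called. With Acta2 and Tagln, 2 of 8 tested fell (25%, against 10.7% of all genes tested). Without wild-type replicate 4, 2 of 9 fell (22.2%) and 1 rose (11.1%), against 17.5% and 17.8% of all genes. Lrat, the enzyme that esterifies retinol for storage, had 4.72, 6.23, 4.38 and 5.02 CPM in knockout livers, against 9.09, 4.26, 7.28 and 13.5 CPM in wild-type livers. Wild-type replicate 2 was below all knockout libraries, and the log2 fold change was -0.64 ± 0.30 (95% interval -1.30 to 0.02, adjusted p = 0.151). Without wild-type replicate 2 Lrat was called (-0.88, adjusted p = 0.0488), and without wild-type replicate 4 it read -0.43 and was not (0.166).

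Reln, which encodes the secreted protein reelin, had 11.9, 11.9, 11.7 and 11.2 CPM in knockout livers, against 12.6, 15.5, 13.7 and 42.2 CPM in wild-type livers. All knockout values were below the wild-type ones, at -0.70 ± 0.32 (adjusted p = 0.147), or -0.25 without wild-type replicate 4 (0.191). The intermediate filament genes Des (desmin) and Vim (vimentin) were at -0.78 ± 0.37 (adjusted p = 0.160) and -0.46 ± 0.20 (0.126), and Vim was called without wild-type replicate 2 (-0.63, 0.0405). Without wild-type replicate 4, Des read -0.41 (0.231) and Vim -0.31 (0.113), and neither was called.

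Pdgfrb, the receptor for platelet-derived growth factor, had 4.40, 4.80, 5.33 and 3.65 CPM in knockout livers, against 5.56, 4.67, 7.28 and 8.43 CPM in wild-type livers (-0.45 ± 0.24, adjusted p = 0.213). The groups overlapped in wild-type replicate 2. Colec11, a collectin gene, was at 0.28 ± 0.18 (adjusted p = 0.294), and rose by 0.40 without wild-type replicate 4 (0.0365). Hgf, the hepatocyte growth factor gene, had 4, 9, 12 and 17 counts in the knockout libraries, against 4, 1, 8 and 0. It was not tested over all libraries, and without wild-type replicate 4 it was not called (0.44, adjusted p = 0.630). Tgfb1, the main profibrotic ligand, had 7.33, 5.89, 5.70 and 5.94 CPM in knockout livers, against 4.17, 4.12, 5.01 and 3.94 CPM in wild-type livers. The knockout libraries were all higher, but the difference of 0.51 ± 0.21 missed the threshold (95% interval 0.05 to 0.97 before adjustment, adjusted p = 0.104).

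**Figure D3:**
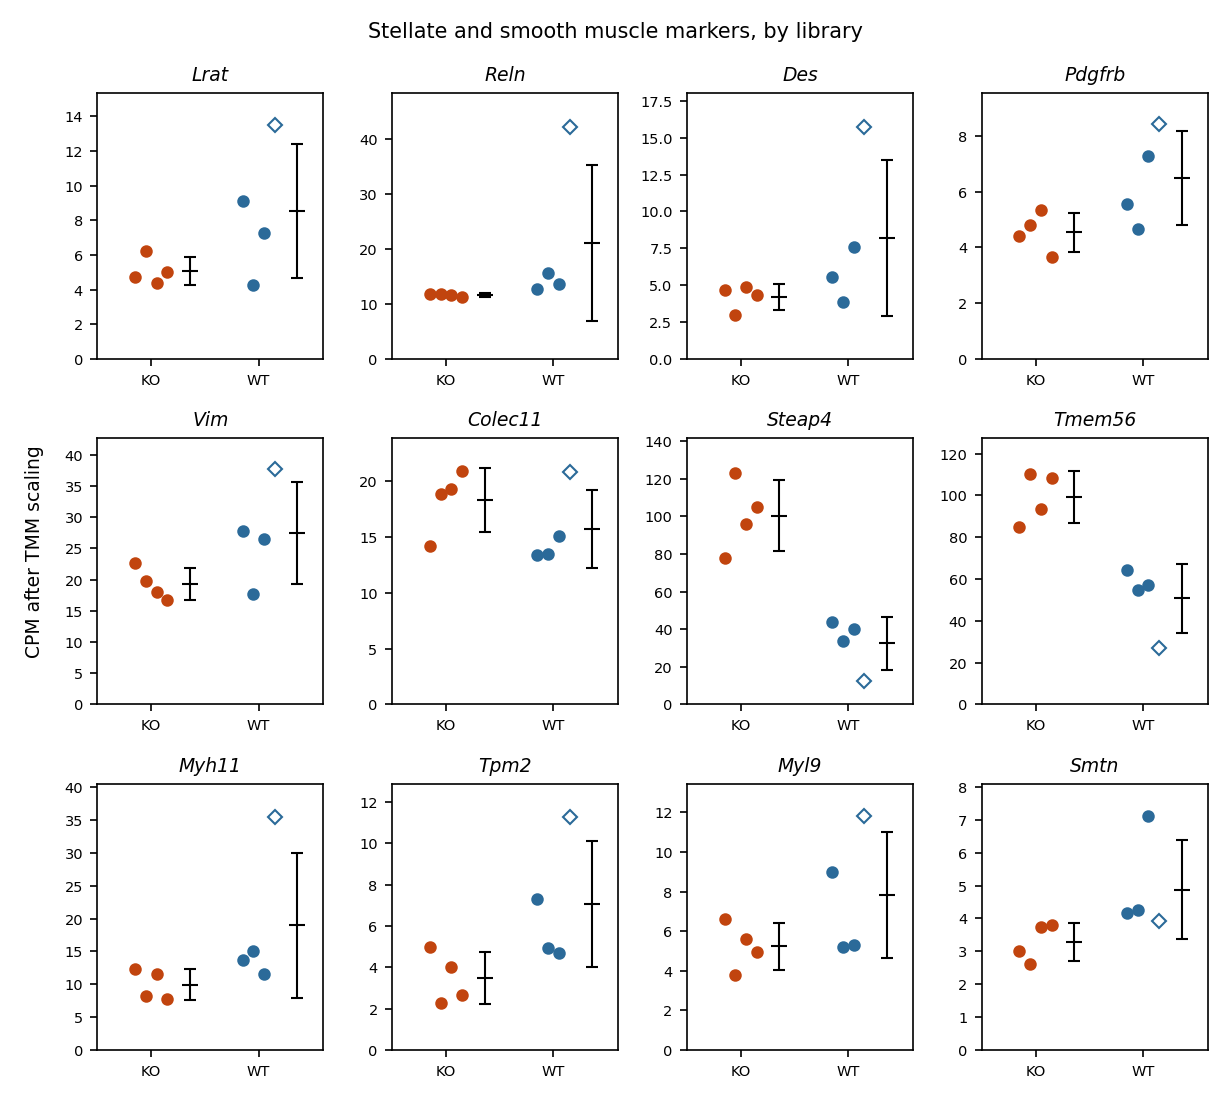
CPM after TMM scaling (vertical axis, starting at 0) for 8 stellate cell genes and 4 smooth muscle genes is shown by library, knockout (KO) left of wild type (WT), with mean ± SD in black and wild-type replicate 4 as an open diamond. Steap4 and Tmem56 were higher in every knockout library than in every wild-type library and past the threshold, and the other 10 genes were not called. The 4 smooth muscle genes are those with the smallest p.

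Of 21 further stellate markers 18 were tested, with a median of 0.01. Of these 3 rose (16.7%, against 10.4% of all genes tested) and 1 fell (5.56%, against 10.7%). Steap4, a metalloreductase gene that hepatocytes also express, rose by 1.57 ± 0.28 (adjusted p = 0.00313), Tmem56 by 0.94 ± 0.22 (0.0123) and the chemokine gene Cxcl12 by 0.52 ± 0.15 (0.0322). The call of Cxcl12 was lost on leaving out replicate 2, 3 or 4 of the knockout, or replicate 2 of the wild type (adjusted p at most 0.0995). It was also lost after thinning. Library size scaling ended the calls of Steap4 (2.02, adjusted p = 0.0513), Tmem56 (1.40, 0.111) and Cxcl12 (1.03, 0.165), with no change of sign. Without wild-type replicate 4, 4 of 19 rose (21.1%) and 3 fell (15.8%), against 17.8% and 17.5% of all genes in that fit. The summed level of the 21 genes was 469 to 591 CPM in knockout and 372 to 457 CPM in wild-type livers.

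Of 7 smooth muscle markers 5 were tested and none was called, with a median of -0.59. Over all genes tested, 10.4% rose and 10.7% fell. Myh11, smooth muscle myosin, had 12.4, 8.16, 11.5 and 7.69 CPM in knockout livers, against 13.8, 15.1, 11.5 and 35.4 CPM in wild-type livers (-0.80 ± 0.32, adjusted p = 0.0965). Tpm2, a tropomyosin, was at -0.91 ± 0.34 (adjusted p = 0.0812), Smtn at -0.59 ± 0.28 (0.150) and Myl9 at -0.49 ± 0.29 (0.261), or 0.12 with library size scaling. The remaining tested marker, Mylk, lay above 0, at 0.17 (adjusted p = 0.474). Knockout replicates 1 and 3 had higher levels than knockout replicates 2 and 4 of Acta2, Tagln, Myh11, Tpm2 and Myl9. The same order was seen outside these genes, as in Mmp14, Col5a2 and Des, and the reverse order in Fn1. Knockout replicates 1 and 3 also had larger mitochondrial shares (15.0% and 11.7%) than knockout replicates 2 and 4 (8.08% and 9.30%). A link to that share was not tested. The summed level of the 7 smooth muscle markers was 118 to 152 CPM in knockout and 126 to 160 CPM in wild-type livers. The part of smooth muscle in the falls of Acta2 and Tagln was not tested. Of 12 portal fibroblast and mesothelial markers 6 were tested and none was called. Without wild-type replicate 4, 1 rose and 1 fell (16.7% each, against 17.8% and 17.5% of all genes). Upk1b had 0 counts in all libraries, and the summed level of these markers was 61.6 to 69.1 CPM in knockout and 40.3 to 79.3 CPM in wild-type livers.

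Markers of other liver cells were counted beside these genes. Over all genes tested, 10.4% rose and 10.7% fell. Among 8 markers of sinusoidal endothelium, 6 rose and none fell, with a summed level of 151 to 292 CPM in knockout and 99.7 to 184 CPM in wild-type livers. Of 10 Kupffer cell markers 6 rose and none fell (166 to 203 CPM in knockout and 64.0 to 216 CPM in wild-type livers). Of 8 hepatocyte genes 1 rose and 2 fell (39293 to 44435 CPM in knockout and 48019 to 60723 CPM in wild-type livers). Of 6 cholangiocyte markers 2 were tested and Spp1 rose, by 0.81 ± 0.20 (adjusted p = 0.0149). That call was lost without knockout replicate 2, 3 or 4, and with library size scaling (adjusted p = 0.109). Without wild-type replicate 4, the sinusoidal endothelial count stayed at 6, while 9 of 10 Kupffer cell markers and 2 of 4 cholangiocyte markers rose, and 1 hepatocyte gene rose and 4 fell. In that fit 17.8% of all genes rose and 17.5% fell. The hepatocyte fall of Alb and rise of Apob were called in 1 and 2 of the 8 fits with a library left out, and the Kupffer cell calls of Clec4f and C1qa in 3 each. No marker of these 4 lists was at 0 in every library, and their part in the matrix results was not tested.

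Of 38 other matrix genes listed, 29 were tested, with a median of -0.24. Of these 5 fell (17.2%, against 10.7% of all genes tested) and 1 rose (3.45%, against 10.4%). Without wild-type replicate 4, 6 of 30 fell (20%, against 17.5%) and 4 rose (13.3%, against 17.8%), with a median of 0.02. The largest fall was that of Col5a3, a further type V chain, with 57.4, 43.7, 51.0 and 43.8 CPM in knockout livers, against 143, 232, 161 and 336 CPM in wild-type livers (-2.14 ± 0.26, adjusted p = 0.000217). The groups lay far apart, and the call held under each of the alternatives run. Nid2, a basement membrane nidogen, fell by 1.75 ± 0.24 (adjusted p = 0.000559), with 2.41 to 3.50 CPM in knockout and 6.19 to 12.4 CPM in wild-type livers. Adamts2, which removes the amino-terminal propeptide of procollagen, had 1.95, 1.43, 1.24 and 0.761 CPM in knockout livers, against 4.17, 3.44, 4.10 and 4.50 CPM in wild-type livers (-1.56 ± 0.34, adjusted p = 0.00861).

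The other falls, of Col16a1 and Pcolce, are named after their values were seen. Col16a1 was at -1.48 ± 0.40 (adjusted p = 0.0236), with the call lost on leaving out replicate 1, 2 or 3 of the knockout, or replicate 2 of the wild type. Pcolce, an enhancer of procollagen processing, was at -0.70 ± 0.21 (adjusted p = 0.0403), with the call kept only without wild-type replicate 2 or 4 among the libraries left out in turn. The gene that rose was Vtn, the vitronectin of plasma, at 2459 to 2560 CPM in knockout and 1469 to 1806 CPM in wild-type livers (0.59 ± 0.13, adjusted p = 0.00861). Library size scaling ended the calls of Nid2, Adamts2, Vtn, Col16a1 and Pcolce, with no change of sign.

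Of 14 genes for enzymes and carriers that fold and export collagen, 13 were tested, 3 rose and none fell, with a median of 0.23. The share that rose was 23.1%, against 10.4% of all genes tested. Without wild-type replicate 4, 5 rose (38.5%, against 17.8% of all genes). P4hb, a subunit of collagen prolyl hydroxylase that also serves as a general disulfide isomerase, had 1185, 1462, 1265 and 1436 CPM in knockout livers, against 684, 592, 652 and 656 CPM in wild-type livers. It rose by 1.05 ± 0.13 (adjusted p = 0.000331). Mia3, which loads collagen into transport vesicles, rose by 0.63 ± 0.13 (adjusted p = 0.00583), and Sec23a, a coat protein of those vesicles, by 0.62 ± 0.15 (0.0145, or 0.0556 without knockout replicate 2). With library size scaling P4hb stayed called (1.62, adjusted p = 0.0371), while Mia3 (1.23, 0.0727) and Sec23a (1.14, 0.119) were not. Sec23a was not called after thinning either. The collagen galactosyltransferase Colgalt1 was not called, at 0.39 ± 0.15 (adjusted p = 0.0816). Hepatocytes, which export plasma proteins in bulk, use the same general machinery.

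Among ligands, receptors and mediators of the transforming growth factor beta and platelet-derived growth factor pathways, 26 of 32 were tested (median -0.01). Of these 2 fell (7.69%, against 10.7% of all genes tested) and 1 rose (3.85%, against 10.4%). Without wild-type replicate 4, 5 fell (19.2%) and 4 rose (15.4%), against 17.5% and 17.8% of all genes in that fit. Pdgfa, a ligand, had 3.01, 3.53, 3.87 and 4.34 CPM in knockout livers, against 10.6, 10.2, 8.80 and 8.43 CPM in wild-type livers (-1.38 ± 0.20, adjusted p = 0.000822). Smad3, the mediator that carries the signal to collagen genes, had 9.12, 8.08, 9.50 and 7.69 CPM in knockout livers, against 16.3, 12.8, 14.1 and 18.6 CPM in wild-type livers (-0.81 ± 0.17, adjusted p = 0.00641). Both groups of values stood clear of each other, and both calls held with each library left out, though not with library size scaling (-0.84, 0.198, and -0.23, 0.655), and Smad3 was not called after thinning. Tgfbr3, the co-receptor betaglycan, rose by 1.08 ± 0.33 (adjusted p = 0.0367), a call lost without any library other than knockout replicate 1 or wild-type replicate 4 (adjusted p at most 0.121). Ccn2, the connective tissue growth factor gene and a usual target of the pathway, was at 0.82 ± 0.27 (adjusted p = 0.0548), and rose by 1.06 without wild-type replicate 4 (0.000177).

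**Figure D4:**
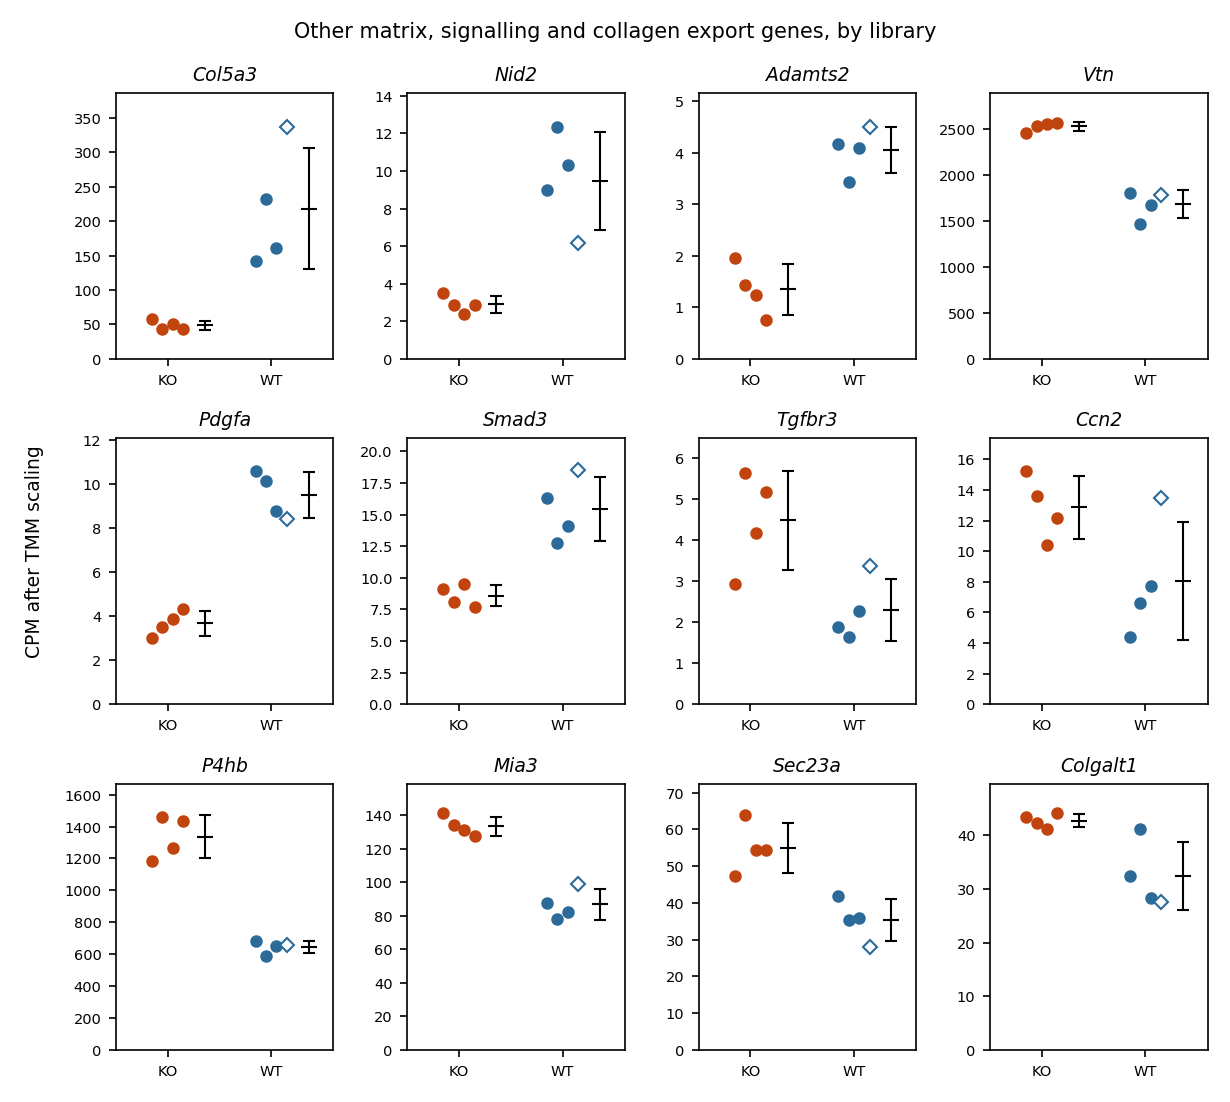
CPM after TMM scaling (vertical axis, starting at 0) is shown by library for the 4 genes with the smallest p in each of the lists of other matrix genes, growth factor signalling genes and collagen export genes, with knockout (KO) left of wild type (WT), mean ± SD in black and wild-type replicate 4 as an open diamond. Col5a3, Nid2, Adamts2, Pdgfa and Smad3 are lower and Vtn, P4hb, Mia3 and Sec23a are higher in every knockout library than in every wild-type library.

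The deleted microRNA pairs with transcripts through bases 2 to 8, shown in capitals in its mature sequence from RefSeq (GRCm38.p6, chr5:138165574-138165596, minus strand).
mmu-miR-93-5p: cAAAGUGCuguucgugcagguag
The matching letters GCACTTT were looked for on the transcript strand of each gene's longest 3′ UTR, and 4 of the 39 members held them (10.3%), against 14.6% of the tested genes with a UTR. The windows below, from GENCODE M21 transcripts, show each match in capitals for comparison with the seed.
Col4a2 (mouse chromosome 8): ggaggagatgataGCACTTTtttctat
Thbs2 (chromosome 17, upstream of 2 matches): taagttggcagatGCACTTTggtaccc
Thbs2 (downstream match): ttcttgttatcctGCACTTTttagatt
Timp2 (chromosome 11): agcattagactttGCACTTTtaaaaaa
Lrat (chromosome 3): cctcaggagtcagGCACTTTacttgaa
None of these 4 genes was called, and their log2 fold changes were 0.19 for Col4a2, 1.08 for Thbs2, 0.50 for Timp2 and -0.64 for Lrat. None of the 8 genes past the threshold held the letters.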

How the data were processed

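The file holds raw counts per Ensembl gene ID that the authors deposited without normalization. The submitters' processing notes name cutadapt 4.2, STAR 2.7.10a and the mm39 build. The counting tool, strand setting and treatment of reads that match several genes are not given in the sources used here, so overlapping and antisense transcripts cannot be told apart. Symbols, 3′ UTRs and exon lengths came from GENCODE M21 (GRCm38), which named 52073 of 56748 IDs, and promoters and the microRNA from RefSeq. No coordinates were converted.

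In R 4.3.3, edgeR 4.0.16 (robust quasi-likelihood fit, TMM, filterByExpr on genotype, no covariate) tested knockout against wild type over 13204 genes, two-sided, with Benjamini-Hochberg adjustment and a threshold of 0.05. Ratios of chain counts used 0.5 added counts and exact permutation tests. Alternatives used DESeq2 1.42.0, limma 3.58.1, other scalings and filters, and each library left out in turn. Thinning each library to 1131446 non-mitochondrial counts was added after the data were seen. On simulated counts for this comparison with 13289 genes tested, 75 of 100 genes given a log2 change of 1 were recovered, as were 100 of 100 given a change of 2, and 12 of 187 calls were false. Limits for counts of 0 (3 counts) cover counting error only, while the 95% intervals of fold changes come from the fit and include the spread between libraries. Figures were drawn with matplotlib 3.10.9.

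The members and gene lists were chosen with earlier results of these data known, so no list was tested as a set. Every member could be named, and from each other list the 4 genes with the smallest p. Col16a1, Pcolce, Mylk and C1qa were named in addition, after their values were seen. A gene of these lists is not reported here.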

Additional observations from a re-analysis of the deposited data

Results flagged for a closer look

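Among 62 sets of 4 libraries (the 31 tested genes in each genotype), 8 had 1 library far from the other 3, by a gap above Dixon's 95% critical share of the range. Chance alone flags about 1 in 20 such sets. In 7 of the 8 it was wild-type replicate 4, which had fewest counts outside the mitochondrial genome, always on the high side: Col14a1 at 106 CPM against 20.8 in the nearest wild-type library, Col6a2 at 9.56 against 3.19, Col4a1 at 17.4 against 8.38, Reln at 42.2 against 15.5, Mmp14 at 68.6 against 30.0, Ecm1 at 230 against 98.1 and Fn1 at 697 against 442. The remaining one was Tgfb1 in knockout replicate 1, at 7.33 CPM against 5.94 in the nearest knockout library. The part of depth or of the mitochondrial share in these values was not tested.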

How the results depend on the processing

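The direction of the 8 called genes held under each alternative in which they were tested. Over all genes, 2777 were called, against 685 with library size only, 4950 with limma-voom and quality weights, 1267 with a replicate block and 1604 after thinning, where 9062 genes were tested. Leaving out 1 library gave 1489 to 4853. Of the members, 2 were higher, against 1 with library size only, 6 with quality weights, 1 with the replicate block, 1 after thinning and 1 to 6 with a library left out. There were 6 lower, against 1 with library size only, 9 with quality weights, 4 with the replicate block, 4 after thinning and 2 to 7 with a library left out. DESeq2 called 2 higher and 7 lower.

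The labels do not state that replicate numbers pair the libraries. Correlations of same-numbered deviations from the group means were -0.19 to -0.03. That check cannot exclude pairing, since the wild-type means include replicate 4, which stood apart. With the replicate block Col6a3 (adjusted p = 0.0799), Tagln (0.0851) and Timp3 (0.0800) were not called, nor were Vtn (0.0699), Adamts2 (0.0512), Mia3 (0.0529), Sec23a (0.0697), Spp1 (0.0536), Pcolce (0.124), Tgfbr3 (0.128) and Cxcl12 (0.120).

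Genes that were not called changed sign as follows. With library size only, which raises the median gene by 0.54, Col5a1 read 0.35, Col5a2 0.23, Col6a1 0.48, Col6a2 0.048, Lum 0.29, Ecm1 0.43, Mmp2 0.059, Pdgfrb 0.13, Vim 0.16 and Reln 0.042. After thinning Col4a1 read -0.32, Col4a2 -0.077, Bgn -0.074 and Colec11 -0.054, and with quality weights Ecm1 read 0.12. With single libraries left out, Col4a1 ran from -0.038 to 0.30, Mmp14 from -0.10 to 0.46, Lum from -0.63 to 0.030 and Ecm1 from -0.56 to 0.10. The cause was not tested.

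The ratio differences, none of them called, also changed sign with a library left out. Col1a1 to Col1a2 ran from -0.52 to 0.011, Col3a1 to Col1a1 from -0.51 to 0.013 and Col5a1 to Col5a2 from -0.31 to 0.25. Depth limits most the values of wild-type replicate 4, where 1 count is 0.562 CPM, and the 8 members too low to be tested.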
